A study of Homo sapiens with 10 samples.

Results

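The genes described here were raised by wild-type interferon gamma (IFNG) in the lung cancer line A549, which is of human origin. In the libraries that chose them, these 61 genes kept under 55% of their log2 rise under GIFN4. They were chosen by position from 20812 lines, each read as a gene of unknown name. A line was taken when its log2 ratio to untreated cells was at least 2 in the IFNG WT library of letter A and when the GIFN4 log2 ratio of letter A, divided by that of IFNG WT, was under 0.55. The quotient is called the share of the wild-type rise, so a share of 55% or more left a gene out. Of 226 lines with an IFNG WT A value of at least 2, 61 met the share and 165 did not, and the 165 serve as the comparison.

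IFNG is a cytokine that binds the receptor chains IFNGR1 and IFNGR2. Binding starts a signal inside the cell that raises the transcription of interferon-stimulated genes, many of which serve in antigen presentation and in defence against infection. A partial agonist is a ligand that binds a receptor but gives less than the full response, and the series title uses this term for the altered proteins compared with wild-type IFNG.

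The cells were left untreated (Untreated) or given IFNG WT, GIFN2, GIFN3 or GIFN4 for 48 h. All 4 proteins were given at a recorded 62 nM, written with a stray decimal point, so the exact dose is uncertain. There were 2 libraries in each of the 5 groups, A and B, which the series calls biological replicates of 1 cell line. Transcripts were amplified with AmpliSeq primers, a kit that targets each human gene with its own primer pair, and sequenced. The structure of the GIFN proteins is not described in the labels.

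The deposited values are log2 ratios of each treated library to the untreated library of its letter, and the untreated libraries are 0 in every line. No value can be given to a named gene, since the IFNG WT A values never rise from a line to the next (100% of steps) while the names beside them run in alphabetical order (99.8% of the steps checked over 450 lines). For the same reason no marker of lung epithelium or of any other cell type could be read, and genes are numbered by their line, which is their rank in IFNG WT A. Depth is known only as a multiple of that of the matching untreated library, and ran from 0.881 in IFNG WT A to 1.27 in GIFN3 B. Of all lines, 13264 had values to test and all 61 members were among them.

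The values that chose the members were as follows, and nothing is tested on them. In letter A the members had IFNG WT values of 2.02 to 7.18 (median 2.90), GIFN4 values of -0.37 to 3.52 (median 1.08) and GIFN4 shares of -15.5% to 54.96% (median 40.1%). Just inside the limit stood gene 40 with a share of 54.96%, gene 41 with 53.6% and gene 195 with 53.5%. Just outside stood gene 27 with 55.1%, gene 100 with 55.4% and gene 10 with 55.6%. In letter B, which took no part in the choice, the 3 genes inside had GIFN4 shares of 50.5%, 53.0% and 33.7%, and the 3 outside had 50.4%, 91.3% and 78.4%. The limit is thus a line through a continuous range, and gene 27 would have been a member by its letter B values.

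In letter B the members again stood above untreated cells under wild type and lower under GIFN4. The median log2 ratio to untreated cells over the 61 genes was 2.96 under IFNG WT, 2.17 under GIFN2, 2.27 under GIFN3 and 1.485 under GIFN4. As folds of the untreated level these medians are 7.77, 4.51, 4.82 and 2.80. IFNG WT values ran from 0.98 to 6.90, so every member was above untreated cells again, 60 of them at least 2-fold and 50 at least 4-fold. Over all tested lines, 6.72% reached 2-fold and 1.69% reached 4-fold in that library. Letter B has 1 library per protein, so these values carry no replicate error of their own.

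**Figure D1:**
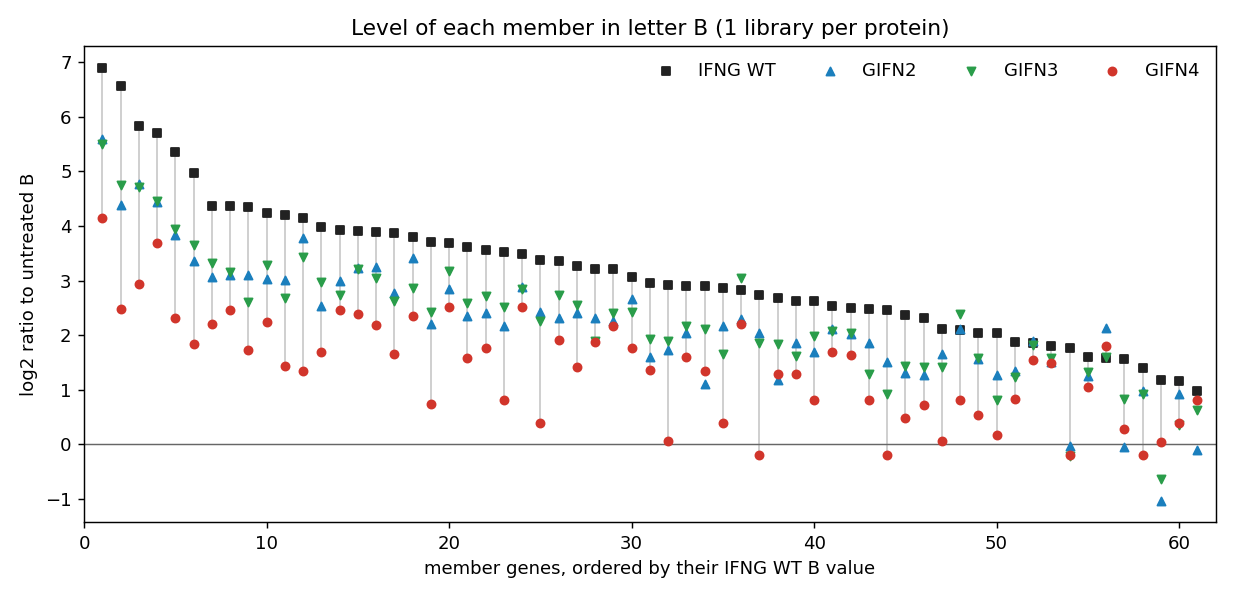
Log2 ratio to untreated B (vertical axis) of each of the 61 members, ordered by the IFNG WT B value; squares are IFNG WT, upward triangles GIFN2, downward triangles GIFN3 and circles GIFN4, 1 library each. IFNG WT is the highest point in 57 genes and GIFN4 the lowest in 53.

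The share of the wild-type rise that GIFN4 kept in letter B had a median of 44.4% over the members, with quartiles at 30.8% and 60.2% and a range of -13.8% to 114%. Over the 165 other wild-type-raised genes the median was 74.3%, with quartiles at 61.0% and 90.4%. The ranges of the sets overlap, and the quartile ranges do not. On the linear scale GIFN4 had a median level of 31.4% of wild type in the members and 58.8% in the others. GIFN4 reached 50% or less of the wild-type level in 51 of the 61 members. The same held for 2.32% of all tested lines and for 39.4% of the 165 others.

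The response to GIFN4 was lower in these genes, and most of them kept a rise of at least 2-fold. In letter B 39 of the 61 members still stood at least 2-fold above untreated cells under GIFN4, where 5.08% of all tested lines were, and 16 at least 4-fold, against 0.935%. Of the 165 others 94.5% stood at least 2-fold above under GIFN4 and 62.4% at least 4-fold, so fewer of the members did. Under GIFN2 55 members stood at least 2-fold above (5.86% of all tested lines) and 38 at least 4-fold (1.36%). Under GIFN3 53 stood at least 2-fold above (5.77%) and 35 at least 4-fold (1.4%). In 4 members (genes 108, 151, 155 and 164, listed because they meet this count) the GIFN4 B value was -0.19, the most frequent value other than 0 in that library, which was read as equal numbers in the treated and the untreated library. In these 4 genes both matched 10 reads, which may stand for 10 or fewer. The description "largely lost" thus applies to the median share of the set, and not to each gene.

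The share rule was met again in letter B by 40 of the 61 members, where 13.3% of the 165 others had a share under 55% there. With the condition that IFNG WT B also reached 2, 34 members met the whole rule in letter B, which is 55.7% of the letter A list and 51.5% of the 66 genes that letter B would choose. No library is shared by the letters. Of the 27 members that did not meet it, 11 had an IFNG WT B value under 2 and the other 16 had a share of 55% or more. The median share of the members was 40.1% in letter A and 44.4% in letter B.

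**Figure D2:**
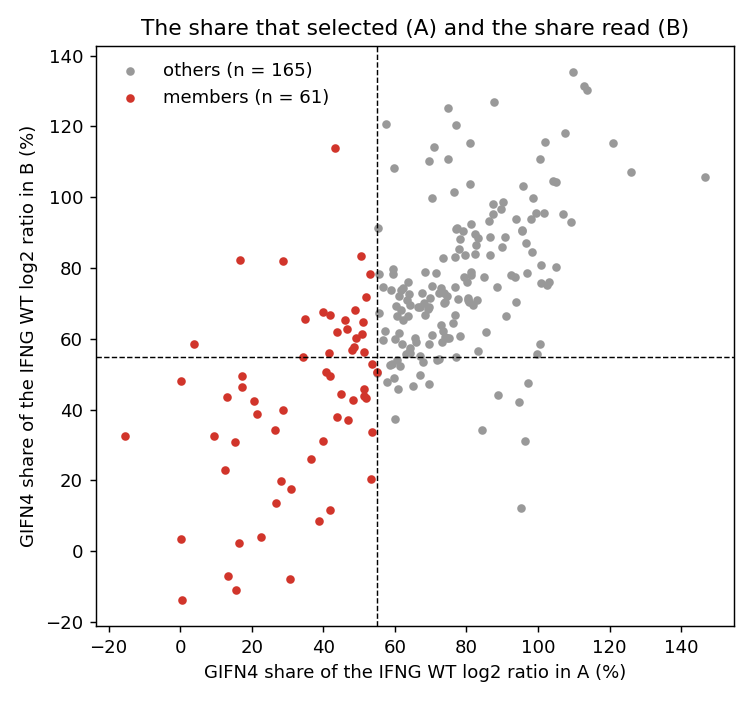
GIFN4 share of the IFNG WT log2 ratio in letter A (horizontal axis, percent), which chose the members, against the same share in letter B (vertical axis, percent) for the 226 genes with an IFNG WT A value of at least 2; red points are the 61 members, grey points the 165 others, and dashed lines mark 55%. Of the red points 40 lie under the horizontal line.

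The genes with the largest gaps between GIFN4 and wild type in letter B are given by their values in every library. Gene 9 had log2 ratios of 6.42 and 6.57 in A and B under IFNG WT, 4.77 and 4.38 under GIFN2, 4.78 and 4.74 with GIFN3, and 2.82 and 2.485 with GIFN4. GIFN4 was the lowest and wild type the highest in both letters, and GIFN2 and GIFN3 lay between them. In letter B the level of gene 9 under GIFN4 was 5.90% of that under wild type, against 21.9% for GIFN2 and 28.2% for GIFN3. Gene 29 had 5.08 and 5.35 under IFNG WT, 3.91 and 3.83 with GIFN2, 4.16 and 3.94 with GIFN3, and 2.64 and 2.32 with GIFN4. Gene 12 had 6.16 and 5.83, then 4.44 and 4.77, 4.33 and 4.72, and 2.52 and 2.94 in the same order of proteins. In both genes wild type was again the highest and GIFN4 the lowest in both letters. For genes 9, 29 and 12 the choice of members had fixed GIFN4 below wild type in letter A. The gap in letter B is what picked them. GIFN4 stood at 12.3% of the wild-type level in gene 29 and 13.5% in gene 12 in letter B.

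Gene 6, the member with the highest wild-type value in letter B, had 7.18 and 6.90 under IFNG WT. It had 5.52 and 5.585 with GIFN2, 5.49 and 5.50 with GIFN3, and 3.52 and 4.15 with GIFN4. Its GIFN4 share was 60.2% in letter B, above the limit of the rule, although its level there was 14.9% of the wild-type level. In genes with a large rise a share of 55% on the log2 scale is a deep loss on the linear scale, so the share and the level order the genes differently.

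For members with few reads the ratios resolve into whole reads. The ratios of a letter were compared with whole read numbers over 10 to 20 untreated reads, after allowing for the relative depth. In letter B 32 of the 61 members matched, 27 of them at 10 untreated reads, and in letter A 34 matched, 28 of them at 10. After a shift of all values by 0.05, 0 members matched in either letter. Of the 165 others 34 matched in letter B and 39 in letter A. Matches that could easily arise by accident were dropped, which happens more often at high treated reads, so low GIFN4 reads by themselves make a match easier, and these counts are not compared further. In all lines 273 in A and 307 in B matched at 10 untreated reads, when numbers from 5 were tried, against 55 and 56 at 11. The number 5 took 81 and 98 lines, among which any line falls whose reads over 10 are all even. Values thus pile up at 10 reads, and where 10 stands for fewer reads the true rise is larger than the ratio. A lower untreated number would add the same amount to the 4 ratios of a gene and so bring the shares nearer to 100%, unless the treated number also stands at 10. The median GIFN4 share of 44.4% can be affected by this, and it was 53.0% over the 25 members without few reads. Low GIFN4 reads in part define few reads, so these medians do not measure the size of that effect.

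Over the 27 members with 10 untreated reads in letter B the reads were 28 to 331 under IFNG WT (median 79), 10 to 140 under GIFN2 (median 46), 11 to 160 under GIFN3 (median 55) and 10 to 63 under GIFN4 (median 28). Relative to untreated B the depth of these libraries was 1.06, 1.02, 1.27 and 1.14, so GIFN4 B was deeper than IFNG WT B. GIFN4 had 20 reads or fewer in 13 of the 27 genes, and IFNG WT in 0. Both counts are shaped by the choice. Members were chosen for a wild-type rise, and low GIFN4 reads make a match easier. Read numbers this small carry a large counting error, and no interval is given because reads made by PCR without molecular identifiers are not independent molecules.

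**Figure D3:**
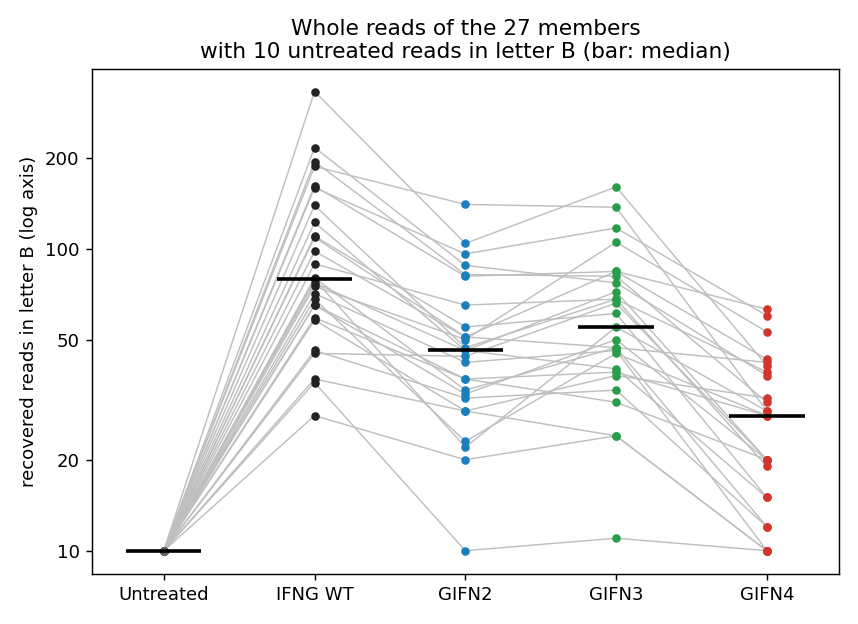
Whole reads recovered in letter B (vertical axis, log scale) for the 27 members with 10 untreated reads; each grey line is a gene, each point 1 library, and bars are medians. The medians are 79 under IFNG WT, 46 under GIFN2, 55 under GIFN3 and 28 under GIFN4.

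Several of these genes, picked for large gaps between GIFN4 and wild type in letter B, are given read by read. The choice of members fixed GIFN4 below wild type in letter A. Gene 25 had 10 untreated reads in both letters, 329 and 331 reads under IFNG WT in A and B, 111 and 104 under GIFN2, 149 and 160 with GIFN3, and 54 and 41 with GIFN4. Gene 64 had 127 and 139 reads under IFNG WT, 39 and 47 under GIFN2, 48 and 68 with GIFN3, and 21 and 19 with GIFN4, over 10 untreated reads. Wild type was the highest, GIFN3 came before GIFN2, and GIFN4 was the lowest in both letters of both genes. Gene 80 had 96 and 110 reads under IFNG WT, 50 and 55 under GIFN2, 47 and 61 with GIFN3, and 27 and 15 with GIFN4. Gene 103 had 70 and 80, 38 and 34, 49 and 47, and 14 and 12 reads in the same order. Gene 108 had 66 and 71 reads under IFNG WT, 44 and 42 under GIFN2, 41 and 46 with GIFN3, and 13 and 10 with GIFN4. In these 3 genes GIFN4 reads in letter B were within 5 reads of the untreated number, whereas GIFN2 and GIFN3 reads were at least 24 above it. Reads are not corrected for depth, and GIFN3 B was the deepest library. In genes 80 and 108 GIFN3 B had more reads than GIFN2 B but the lower log2 ratio. The ratios were 2.27 against 2.43 in gene 80 and 1.86 against 2.04 in gene 108.

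GIFN2 and GIFN3 were also below wild type in most members in letter B, by less than GIFN4 at the median. Their median shares in letter B were 71.7% for GIFN2 and 73.1% for GIFN3, against 89.0% and 89.7% over the 165 others. In levels, GIFN2 stood at a median of 52.1% and GIFN3 at 53.8% of wild type in the members, and at 79.9% each in the others. GIFN2 reached 50% or less of the wild-type level in 28 of the 61 members, where 1.38% of all tested lines and 17.6% of the others did, and GIFN3 in 26, where 0.92% and 9.7% did. Wild type was the highest of the 4 proteins in 57 members, or 93.4%, and in 67.9% of the others. GIFN2 and GIFN3 of letter A did not choose the members, but share untreated A and the wild-type library with the choice, and had median shares of 69.3% and 68.9% there.

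**Figure D4:**
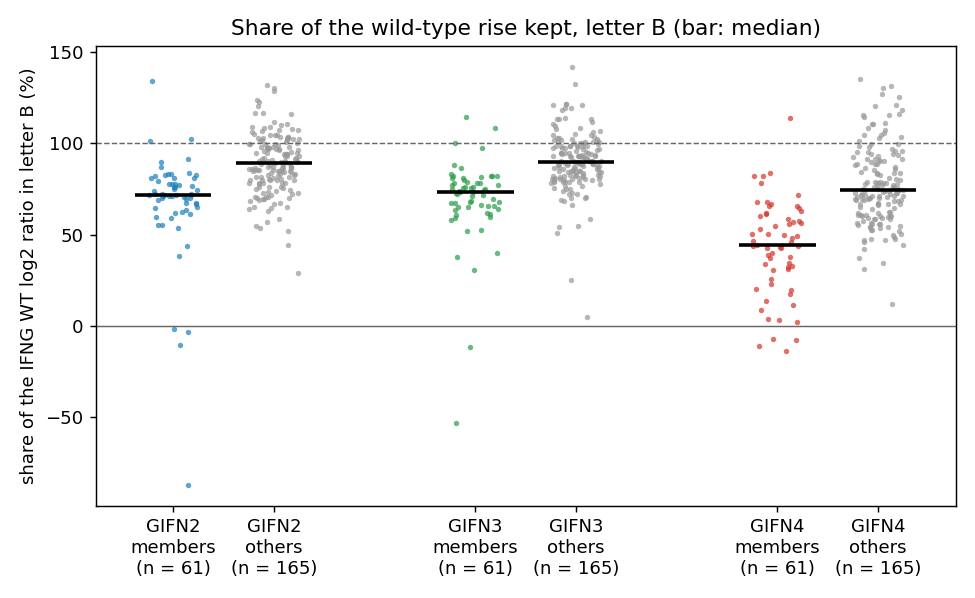
Share of the IFNG WT log2 ratio in letter B (vertical axis, percent) under GIFN2, GIFN3 and GIFN4, for the 61 members (coloured) and the 165 other genes (grey); each point is a gene and bars are medians. The member medians are 71.7%, 73.1% and 44.4%, each under the median of the others.

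The ends of the order, wild type and GIFN4, recurred in most members. In letter B GIFN4 was the lowest of the 4 proteins in 53 of the 61 members, where it was the lowest in 27.6% of all tested lines and in 79.4% of the 165 others. IFNG WT was the highest and GIFN4 the lowest at once in 50 members, or 82.0%, and in 61.8% of the others. The 8 members in which GIFN4 was not the lowest, listed after their values were seen, were genes 112, 113, 133, 155, 184, 190, 195 and 197.

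By classes of the letter B shares, 3 of the 61 members had GIFN4 under 55% and both GIFN2 and GIFN3 at 80% or more. These were genes 12, 50 and 127. The class is one of log2 shares only. In letter B gene 12 stood at 48.0% of the wild-type level with GIFN2 and at 46.3% with GIFN3. Under GIFN4 it was still 7.70-fold above untreated cells. In 3 members, genes 155, 184 and 190, all 3 analogues were under 55%. A further 34 had GIFN4 under 55% and met neither class, and 21 had a GIFN4 share of 55% or more. Most of the 40 members with GIFN4 under 55% thus had a share under 80% with GIFN2 or GIFN3 as well. Class counts over the 165 others are not given, and 13.3% of these had GIFN4 under 55%. GIFN2 shares reached 80% in 24.6% of the members and 72.7% of the others, and GIFN3 shares in 23.0% and 81.2%.

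Gene 50, over 10 untreated reads in each letter, had 154 and 187 reads under IFNG WT in A and B, 178 and 140 under GIFN2, 134 and 137 with GIFN3, and 13 and 29 with GIFN4. GIFN2 was above wild type in A and below it in B, while GIFN4 was below the other 3 proteins in both letters. The choice of members fixed GIFN4 below wild type in letter A, and the class did so in letter B. Gene 127 had 60 and 45 reads under IFNG WT, 33 and 44 under GIFN2, 48 and 66 with GIFN3, and 15 and 20 with GIFN4. In letter B its reads under wild type and GIFN2 differed by 1, and in letter A GIFN2 stood lower.

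At the other end, gene 190 had letter B values of 1.185 under IFNG WT, -1.03 under GIFN2, -0.63 under GIFN3 and 0.05 under GIFN4, and in letter A 2.18, 1.58, 1.56 and 0.50. Its letters disagree on the order of the analogues. Gene 184 had 1.57, -0.05, 0.825 and 0.27 in letter B and 2.21, 1.01, 1.02 and 0.68 in letter A. Gene 155 had 49 and 36 reads under IFNG WT, 16 and 10 under GIFN2, 22 and 11 with GIFN3, and 13 and 10 with GIFN4, over 10 untreated reads. In letter B its 3 analogue libraries were thus within 1 read of the untreated number.

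The members that came nearest to wild type under GIFN4 in letter B were genes 197, 133, 200 and 170. Gene 197 had 35 reads under IFNG WT, 49 under GIFN2, 42 under GIFN3 and 44 under GIFN4 in letter B, over 11 untreated reads, and 66, 51, 34 and 32 over 17 in letter A. Its GIFN4 value was above wild type in letter B, which happened in no other member. Gene 133 had a wild-type value of 2.69 in A and 0.98 in B, with GIFN4 at 0.78 and 0.81. Gene 170 had 44 and 37 reads under IFNG WT, 27 and 29 under GIFN2, 36 and 38 with GIFN3, and 13 and 32 with GIFN4, over 10 untreated reads. With depth allowed for, its letter B log2 ratio was 1.585 with GIFN3 and 1.80 under IFNG WT. Gene 200 had 2.11 and 1.855 under IFNG WT and 1.07 and 1.55 under GIFN4. In these 4 genes the loss seen in letter A was not seen again, by GIFN4 levels of 80.2% to 117% of wild type in letter B.

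The shortfall in letter B followed the share in letter A along the whole range of wild-type-raised genes. Of the 226, the 23 with a GIFN4 share under 30% in A had a median share of 32.6% in B, the 17 with 30% to 45% had 49.6%, the 21 with 45% to 55% had 56.9%, and the 39 with 55% to 65% had 66.3%. The next 39, with 65% to 75%, had 69.0%, the 35 with 75% to 85% had 78.0% and the 52 with 85% or more had 90.5%. All 23 genes of the lowest step had few reads in at least 1 letter, as had 3 of the 17 and 10 of the 21 in the next steps, and the part of read numbers in the steps was not tested. GIFN2 shares in letter B went from 71.0% to 97.6% and GIFN3 shares from 65.8% to 97.2% between the lowest and the highest step.

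Across the 226 genes the GIFN4 difference from wild type in letter A correlated with that in letter B at a Pearson r of 0.771, with the GIFN2 difference in letter B at 0.637 and with the GIFN3 difference in letter B at 0.676. Among the 61 members these r were 0.620, 0.354 and 0.440. The letters share no library, genes are not independent replicates, and genes with large rises have large differences in both letters, so r is a description.

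The share was also read by the size of the rise. Members with an IFNG WT A value of 2 to 2.5 (16 genes) had a median GIFN4 share of 30.9% in letter B, those with 2.5 to 3 (17 genes) 45.8%, those with 3 to 4 (13 genes) 54.9% and those with over 4 (15 genes) 50.5%. The others had 86.7% (58 genes), 71.6% (33), 71.4% (33) and 69.4% (39) in the same steps. In each step the members' median was lower than that of the others.

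The difference between GIFN4 and wild type was tested in letter B, with the IFNG WT A and GIFN4 A libraries left out because they chose the members. The limma fit took the spread from the untreated, GIFN2 and GIFN3 libraries, so IFNG WT B and GIFN4 B are assumed to vary like these. All ratios of a letter have the same denominator, which the letter term takes up, so the fit equals one on log2 levels. The untreated pair thus adds its own spread although it is deposited as 0. In 24 of the 61 members, however, the untreated libraries of both letters matched 10 reads. Where 10 stands for fewer reads, part of the spread of this pair is hidden, so the error may be understated there. GIFN4 was called lower than wild type in 18 of the 61 members (limma, adjusted p under 0.05 over all 13264 lines) and higher in 0. Of all tested lines 0.271% were called lower, 36 in number, and of the 165 others 14 were, or 8.48%. The 18 differences ran from -4.08 to -1.90 on the log2 scale, and 11 of the 18 genes had few reads. At an unadjusted p under 0.05 GIFN4 was lower in 54 members and higher in 0, where 9.22% of all tested lines were lower. The calls are not firm: the count was 0 with no replicate block in the fit, 0 with no filter on low values (smallest adjusted p 0.0502 among the members, limma) and 0 without any 1 of Untreated A, Untreated B, GIFN2 A, GIFN2 B, GIFN3 A or GIFN3 B, and it was 11 of 25 members without the lines with few reads.

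Gene 9 had the largest difference, -4.08 ± 0.20 (SE, 1 library per protein; adjusted p = 0.0284, limma), from letter B alone, since the choice of members fixed the direction in letter A. Gene 25 followed with -3.12 ± 0.16 and gene 29 with -3.03 ± 0.16. The next were gene 80 with -2.98 ± 0.15, gene 64 with -2.98 ± 0.17 and gene 108 with -2.94 ± 0.15. In letter B these had 15, 19 and 10 reads under GIFN4. The SE rests on the spread of the untreated, GIFN2 and GIFN3 libraries, so it does not hold the counting error of such low GIFN4 reads. Gene 6 had -2.75 ± 0.14. These 7 genes had the same adjusted p of 0.0284 (limma), the smallest among the members. Gene 12 with -2.88 ± 0.20 and gene 103 with -2.85 ± 0.18 had adjusted p = 0.0348 (limma), and gene 50 with -2.80 ± 0.21 had 0.0349. Gene 127 with -1.28 ± 0.17 did not pass, at adjusted p = 0.0844 (limma).

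**Figure D5:**
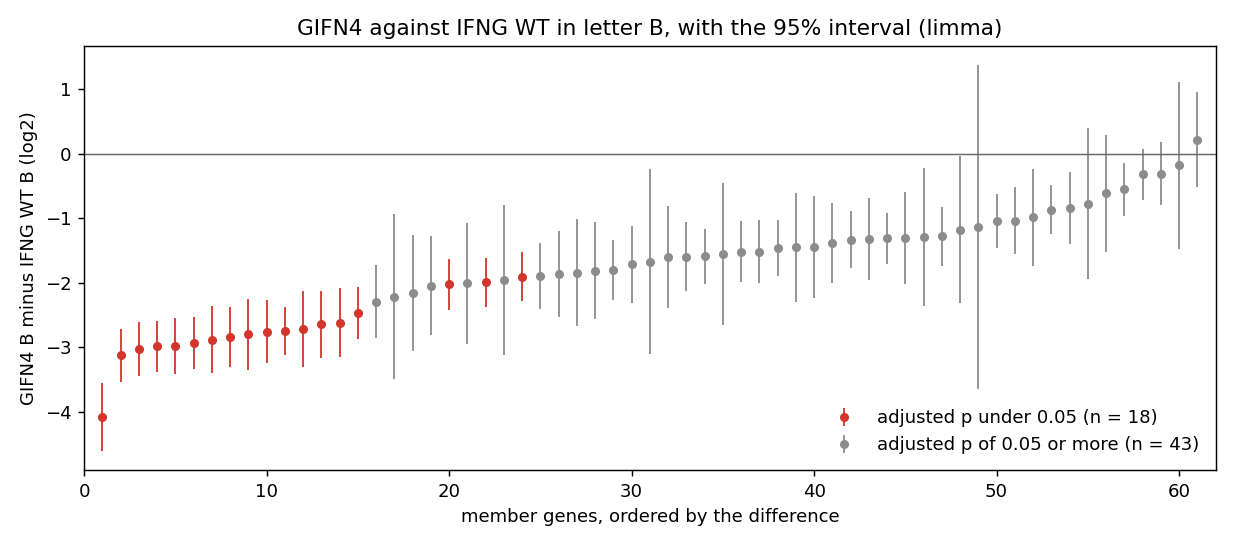
GIFN4 B minus IFNG WT B on the log2 scale (vertical axis) for the 61 members, ordered by size; points are limma estimates from 1 library per protein and bars are 95% intervals, red for the 18 genes with an adjusted p under 0.05. The intervals carry no adjustment over genes and do not hold the counting error of low GIFN4 reads. Their spread comes from the untreated, GIFN2 and GIFN3 libraries.

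No member was called between the other pairs in the same fit. For GIFN2 against wild type the count was 0 (limma; 0% of all tested lines), with 45 of 61 members lower at an unadjusted p under 0.05 (4.81% of all tested lines), a median difference of -0.91 and a smallest adjusted p of 0.339 (limma). For GIFN3 against wild type it was 0 (0% of all tested lines), with 47 lower at an unadjusted p under 0.05 (3.53% of all tested lines), a median of -0.91 and a smallest adjusted p of 0.357 (limma). GIFN4 was called below GIFN2 in 0 members and below GIFN3 in 0 (limma; 0% of all tested lines each), with 40 and 35 lower and 0 higher at an unadjusted p under 0.05 and median differences of -0.76 and -0.81. Of all tested lines 4.34% and 4.16% were lower at that p. The median half-width of the 95% interval of these estimates was 0.49, and the estimates with GIFN2 or GIFN3 draw on untreated A, which the choice of members also used.

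GIFN3 and GIFN2, which took no part in the choice, were not told apart in the members. Their difference was called in 0 of 61 (limma; 0% of all tested lines, smallest adjusted p 0.887), and at an unadjusted p under 0.05 GIFN3 was lower in 8 and higher in 2, where 5.32% of all tested lines differed either way. The median of GIFN3 minus GIFN2 was 0.02 on the log2 scale. The median half-width of the 95% interval was 0.38, and in 51 of the 61 members the interval lay within 1 log2 unit of no difference, and in the other 10 it reached further. GIFN3 was above GIFN2 in both letters in 23 members and below it in both in 20. These counts show no common direction.

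The members' spread between letters was a median of 0.25 for IFNG WT, 0.28 for GIFN2, 0.33 for GIFN3 and 0.52 for GIFN4, as the absolute difference of A and B on the log2 scale. The GIFN4 values were lower in A than in B by a median of 0.34, and letter A chose the members for low GIFN4 and high IFNG WT values, so the spreads of these 2 proteins include that choice.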

How the data were processed

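RNA of 10 A549 libraries (5 groups of 2) was amplified with an AmpliSeq panel and read on an Ion S5 XL, per the labels. The deposited values are log2 ratios, named log2(DER) per the file headers, with 3 decimals. The submitters' processing notes name the build hg19, and no source used here tells how reads were counted or scaled. The groups follow the titles of the samples, and absolute depth is unknown.

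The members and lists were chosen with earlier results of these data known. Letter A chose the members, and letter B was read. Values of lines other than 0 in at least 2 of the 6 treated libraries of the fit were fitted in R 4.3.3 by limma 3.58.1 (group and letter as terms, robust empirical Bayes, Benjamini-Hochberg adjustment, threshold 0.05) over 8 libraries, without IFNG WT A and GIFN4 A. The letter is a block because the ratios of a letter share 1 untreated library. The fit has 2 residual degrees of freedom. A check on simulated data gave every library of a line the same normal spread, without a read floor or counting error. It does not test whether IFNG WT B and GIFN4 B vary like the other libraries. Named genes are the 8 members with the lowest and the 4 with the highest GIFN4 B minus IFNG WT B, the 3 with the highest IFNG WT B, the 3 with the highest and the 3 with the lowest GIFN2 B share, and the 3 genes on either side of the share limit; gene 50 and those said to be listed for a count were chosen after their values were seen. Few reads means that the 4 ratios of a letter matched whole reads over 10 to 20 untreated reads within 0.0011 on the log2 scale with a chance under 0.005. Relative depth came from the commonest value besides 0, taken as equal reads. Alternatives were the thresholds, the letter that selects, centring, the filter, the block, the libraries fitted and each left-out library.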

Additional observations from a re-analysis of the deposited data

How the results depend on the processing

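The number of members was 112 and 28 with IFNG WT A at least 1.5 and 3, 40 and 100 with a share under 0.45 and 0.65, and 25 without lines with few reads. Of these 58, 15, 20, 61 and 12 met the same rule in letter B. The median GIFN4 share of 44.4% became 50.5% with IFNG WT A at least 3, 38.3% and 55.8% with a share under 0.45 and 0.65, 47.5% when letter B selected and letter A was read, 49.9% with median centring and 53.0% without lines with few reads. That of GIFN2 became 76.9% with a share under 0.65, 76.9% in the exchange of letters and 75.2% with centring, and that of GIFN3 68.0% and 78.2% with a share under 0.45 and 0.65, 79.8% in the exchange of letters and 76.3% without lines with few reads. Under each of these settings GIFN4 kept the lowest median share. Few reads were defined in part by low GIFN4 reads, so that setting is not independent of the share. Centring moved IFNG WT A and GIFN4 A by 0.067 and -0.063 and gave 78 members. Of these 34, or 43.6%, met the same rule in letter B, against 55.7% without centring.

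Members called lower under GIFN4 than wild type (18) numbered 0 with no replicate block, 0 on the treated libraries alone, 0 with no filter, 51 with all 10 libraries, which include those that selected, 23 with centring, and 11 without lines with few reads, chosen after seeing the data. Leaving out each of 6 libraries in turn gave 0 to 0 with 1 residual degree of freedom; leaving out either untreated library gives the same fit as the treated libraries alone. A fit without IFNG WT B or GIFN4 B was not run, since it would rest on the libraries that selected. With all 10 libraries 15 members were called below GIFN2 and 12 below GIFN3. The other 3 comparisons kept a count of 0 in all these settings. The cause of these changes was not tested.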

Other observations

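The same rule applied in letter B chose 66 genes, of which 32 were not chosen by letter A. Of these 32, 18 had an IFNG WT A value of at least 2 with a share of 55% or more there, and 14 had an IFNG WT A value under 2. Read in letter A, the 66 had a median GIFN4 share of 47.5%. Among the 61 genes chosen by letter A, the 36 with few reads in a letter had a median GIFN4 share of 39.3% in letter B. The 25 without had 53.0%. Among the 165 others the medians were 73.4% for 40 genes with few reads and 74.3% for 125 without. Low GIFN4 reads make a match easier, so the split depends in part on the GIFN4 values compared across it.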
